A study of Mus musculus with 3 samples.

Results

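EZH2 ChIP-seq calls in mouse macrophages held 1095 merged regions, of 9785 in all, that were strong in untreated cells and had no interval in cells given LPS for 2 h. They are called lost regions here, and the word refers to the list of calls only. A region entered this group when it overlapped an interval of the untreated library (NT), overlapped no interval of the stimulated library, lay on chromosomes 1 to 19, X or Y, and had a highest NT summit value of 30 or more. The summit value is the authors' score at the highest point of an interval. Of the 3776 regions with an NT summit value of 30 or more, 1095 (29.0%) were lost and 2681 were kept, meaning that they overlapped an interval of the LPS library. The members were thus chosen by their NT summit value and by the absence of an LPS interval, so neither is a result.

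The cells of both conditions were macrophages grown with M-CSF from the marrow of adult C57BL/6 mice. The stimulated cells received LPS, a bacterial cell wall component sensed by Toll-like receptor 4, for 2 h, and the others were not treated. Each condition had 1 EZH2 library, the labels do not say how many animals gave the cells, and the input DNA is not analysed here. The stimulated track is named for TLR and was assigned to the LPS sample as the only stimulated one, which limits every statement on LPS. No value below has a replicate, no difference was tested, and read depth and the scaling between libraries are unknown. A region without an LPS interval can therefore still hold EZH2 in stimulated cells. The LPS library had 4651 intervals with a median summit value of 16 (7 to 100), and the NT library had 9643 with a median of 27 (11 to 253). The cell type cannot be checked against markers from EZH2 intervals, which give no expression.

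EZH2 is the catalytic subunit of polycomb repressive complex 2, which methylates lysine 27 of histone H3. In many cell types the complex is found at CpG-rich promoters of silent developmental genes, often over broad domains. Promoters of genes that all cells use are also often CpG-rich, but they are usually active.

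The promoters shown here are those of the regions on which the sequence results turn, each from 250 bases before to 30 bases after the RefSeq start on GRCm38.p6, the assembly of mm10. Srsf7, Urgcp and Taf4 had the highest NT values among lost regions that held a start in the promoter table. The Ska3 promoter is shared with Mrpl57, whose start on the opposite strand is 75 bp away, and Pitx3, an eye and brain homeobox gene, had the highest NT value among developmental list genes at kept regions of like NT value that held 1 start (LPS value 27, NT value 63, the same as at Srsf7). Pitx3 also had a stronger kept region within 2.5 kb of its ends, with an LPS value of 52 and an NT value of 88. Capitals mark, on either strand, the core CCGGAAG bound by ETS factors, the half-site TGCGCA of NRF1, and the core ATGGCGG bound by YY1.
Srsf7, chr17:80207276-80207555, minus strand: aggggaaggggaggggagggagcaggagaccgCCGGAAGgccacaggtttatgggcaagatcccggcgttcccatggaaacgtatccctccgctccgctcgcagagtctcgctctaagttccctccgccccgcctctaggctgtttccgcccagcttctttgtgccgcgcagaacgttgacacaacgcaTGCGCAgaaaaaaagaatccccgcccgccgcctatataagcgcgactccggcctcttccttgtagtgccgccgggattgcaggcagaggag
Urgcp, chr11:5762347-5762626, minus strand: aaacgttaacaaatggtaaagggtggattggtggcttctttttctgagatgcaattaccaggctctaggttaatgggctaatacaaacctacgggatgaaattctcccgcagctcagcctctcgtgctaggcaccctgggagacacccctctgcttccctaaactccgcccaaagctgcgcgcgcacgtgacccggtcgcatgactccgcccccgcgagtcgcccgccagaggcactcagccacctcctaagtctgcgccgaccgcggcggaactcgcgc
Taf4, chr2:179976617-179976896, minus strand: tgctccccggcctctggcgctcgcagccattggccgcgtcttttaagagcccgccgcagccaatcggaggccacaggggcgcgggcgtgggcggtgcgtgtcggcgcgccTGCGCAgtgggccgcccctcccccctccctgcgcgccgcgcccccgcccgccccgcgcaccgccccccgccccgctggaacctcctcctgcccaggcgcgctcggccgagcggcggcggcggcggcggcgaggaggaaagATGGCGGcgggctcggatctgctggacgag
Ska3, chr14:57826134-57826413, minus strand: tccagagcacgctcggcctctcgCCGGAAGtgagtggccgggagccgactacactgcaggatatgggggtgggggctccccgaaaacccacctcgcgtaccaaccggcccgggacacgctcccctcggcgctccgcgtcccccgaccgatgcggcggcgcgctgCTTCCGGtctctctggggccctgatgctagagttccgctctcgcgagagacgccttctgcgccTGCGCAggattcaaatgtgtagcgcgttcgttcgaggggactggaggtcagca
Pitx3, chr19:46148296-46148575, minus strand: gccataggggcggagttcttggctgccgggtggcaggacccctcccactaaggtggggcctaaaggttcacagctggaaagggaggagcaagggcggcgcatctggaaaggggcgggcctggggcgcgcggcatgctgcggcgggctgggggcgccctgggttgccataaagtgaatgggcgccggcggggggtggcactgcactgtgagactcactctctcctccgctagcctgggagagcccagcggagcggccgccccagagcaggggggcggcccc
Srsf7 held 1 ETS and 1 NRF1 match, Taf4 1 NRF1 and 1 YY1 match, and Ska3 2 ETS matches and 1 NRF1 match. Urgcp and Pitx3 held none of the 3.

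The highest lost region lay over the start of Srsf7, a splicing factor gene, beside Gemin6, a gene of the complex that assembles spliceosomal particles (chr17:80206123-80207699). It was 1577 bp wide with an NT summit value of 63. Its summit was 137 bp downstream of the Srsf7 start, and the nearest LPS interval was 489773 bp away. Efcab2 (NT summit value 61, chr1:178405336-178406911) and Urgcp (61, chr11:5761735-5762746) followed. The fourth region, with a value of 60, was between genes (chr8:15519551-15520454), 372083 bp from Csmd1, the nearest named protein-coding gene. Taf4, which encodes a subunit of the general factor TFIID, had a value of 59 (chr2:179976467-179977544). Values of 58 were found at Apbb2, at Glce, an enzyme gene of heparan sulfate synthesis, and at Apc, a tumour suppressor gene of the Wnt pathway. The value was 56 at Eif4a3, which encodes a helicase of the exon junction complex, and at Atxn7l3b. Zfp568, a zinc finger repressor gene, had 55. Slain2, Tusc1 and a region shared by Haus6 and Rraga had 54, where Rraga encodes a GTPase that signals amino acid supply to mTORC1. Rpl10a, a ribosomal protein gene in a region shared with Fance and Tead3, had 53. None of the 16 highest lay at a member of the developmental or early LPS response lists used below.

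Most lost regions sat close to the threshold of 30. Their NT summit values were 30 to 63 with a median of 34 and quartiles of 31 and 38. Just inside the threshold, 154 lost and 122 kept regions had the value 30. Just outside it, with the value 29, 194 regions without an LPS interval and 101 regions with one were left out. The share of regions without an LPS interval was 57.7% over all 9509 regions with an NT interval and 34.9% among the 3137 with NT values from 30 to 63. The 2042 kept regions in that range are used below for comparison and called kept regions of like NT value, although their median was 40.

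**Figure D1:**
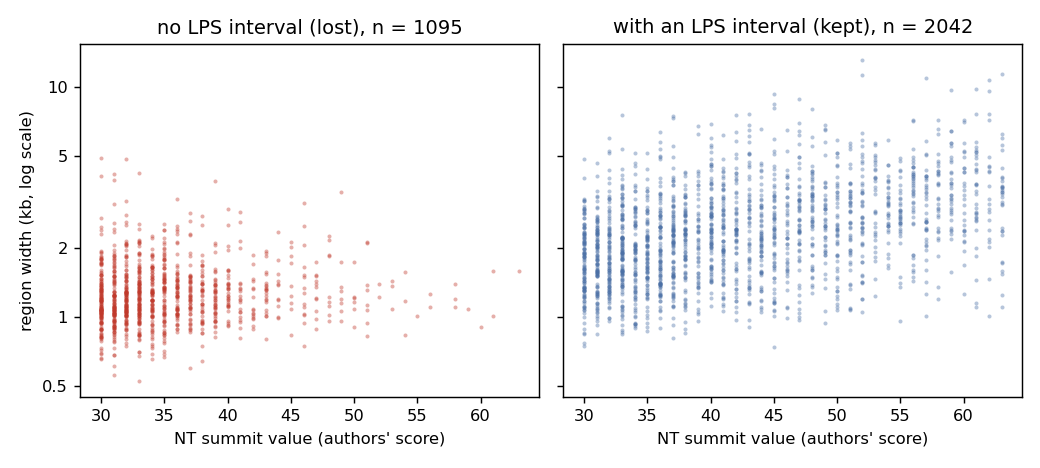
Region width in kb (log scale) against NT summit value, one point per region. The 1095 lost regions are on the left with a median width of 1203 bp, and the 2042 kept regions of like NT value are on the right with a median of 2286 bp.

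Lost regions were narrow. Their width was 528 to 4922 bp with a median of 1203 bp (95% order-statistic interval 1185 to 1232 bp), against a median of 2286 bp (2221 to 2344 bp) in kept regions of like NT value. The 4387 weaker lost regions, with NT values below 30, had a median of 1055 bp. The share of regions that were lost fell with width in each class of NT value. Of regions with a value from 30 to 34, 83.4% of 157 up to 1 kb wide and 12.5% of 64 over 3 kb wide had no LPS interval. Of regions with a value from 50 to 63, 5 of 6 up to 1 kb wide and 0 of 257 over 3 kb wide had none. Median widths in that class were 1197 bp in lost and 3070 bp in kept regions. SICER, named in the submitters' processing notes, joins neighbouring windows into islands. Whether it made these intervals is not stated, and how far width depends on the caller was not tested.

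**Figure D2:**
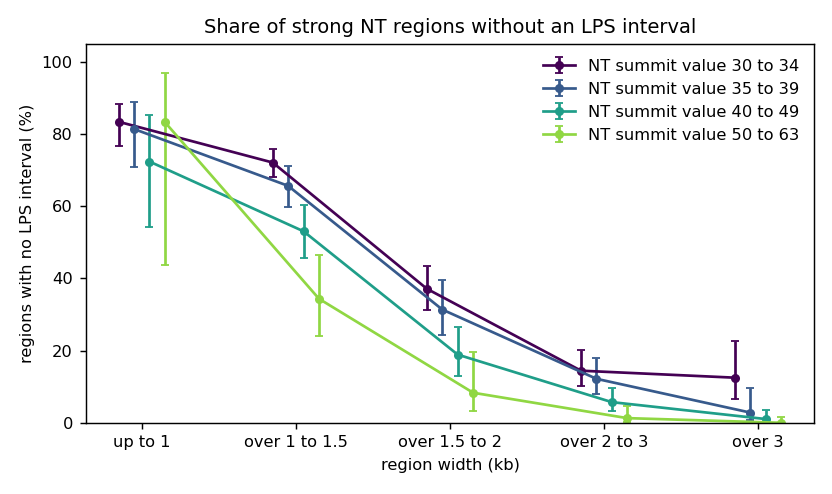
Percentage of strong NT regions with no LPS interval by width class, one line per class of NT summit value, with 95% Wilson intervals. The percentage is 83.4% for values from 30 to 34 up to 1 kb wide and 0% for values from 50 to 63 over 3 kb wide.

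The widest lost regions had low summits. Csf2ra, the alpha chain gene of the GM-CSF receptor, lay in a region of 4922 bp with an NT value of 30 (chr19:61224057-61228978). A region of 4860 bp at Wdr18, Grin3b and Tmem259 had 32, one of 4208 bp at Ap5b1 had 33, and one of 4184 bp at Foxo3, a forkhead transcription factor gene, had 31. Each of the 1095 members held a single NT summit. With NT intervals as the unit the members also numbered 1095, so this follows from how regions were merged and is not a result.

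The kept regions show what the LPS library gave where it made a call. In kept regions of like NT value the LPS summit value was 8 to 50 with a median of 19. The ratio of LPS to NT summit value had a median of 0.472 there (central 90% of regions 0.286 to 0.695), and 0.406 among the 402 kept regions up to 1500 bp wide. With NT values from 30 to 34, kept regions had LPS values of 8 to 33 with a median of 15. That median is just below the median of 16 over all LPS intervals, whose lowest value was 7. The ratio is not scaled to depth. Whether calling sensitivity differed between the libraries was not tested.

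Lost regions were mostly at gene ends, defined as within 2.5 kb of either annotated end of a protein-coding gene. This held for 985 of 1095 (90.0%, 95% Wilson interval 88.0 to 91.6%), against 83.2% (81.5 to 84.8%) of kept regions of like NT value and 80.1% of weaker lost regions. Wilson intervals cover counting error only. Inside genes lay 7.76% of lost and 10.7% of kept regions of like NT value, and between genes 2.28% and 6.12%. Among regions up to 1500 bp wide the shares at gene ends were 89.9% of lost and 87.6% of kept, with overlapping intervals.

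The lost regions more often covered a transcription start. Among regions at a gene end whose genes all have a RefSeq start in the promoter table used, 721 of 772 lost regions (93.4%, 91.4 to 94.9%) held a start, against 1038 of 1268 kept regions of like NT value (81.9%, 79.6 to 83.9%). Restricted to widths up to 1500 bp, the shares were 92.8% of 598 lost and 78.7% of 282 kept regions.

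The NT summit of lost regions lay just downstream of the start. In the 800 lost regions holding a start, the summit was at a median of 93 bp downstream (quartiles 17 and 165), against 181 bp (19.8 and 424) in 1136 kept regions of like NT value. With widths up to 1500 bp the medians were 93 bp (95% interval 84 to 100 bp) in lost and 96.5 bp (73 to 119 bp) in kept regions, so this difference was not seen at like width. Weaker lost regions had a median of 96 bp. The summit lay within 250 bp of the start in 83.6% of lost and 52.1% of kept regions. A wide region leaves more room for a distant summit, and up to 1500 bp wide the shares were 88.5% (85.7 to 90.8%) of lost and 80.1% (74.5 to 84.7%) of kept regions. Summit positions fell on steps of 16 bp in 96.6% of NT summits, which sets their resolution.

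**Figure D3:**
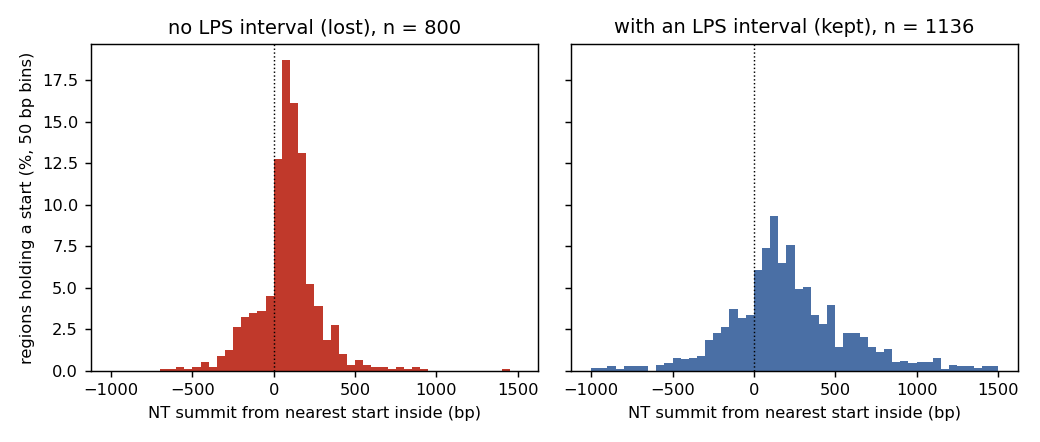
Distance in bp from the nearest RefSeq start inside a region to the NT summit, downstream positive, as a percentage of regions holding a start in bins of 50 bp. The 800 lost regions on the left have a median of 93 bp and the 1136 kept regions of like NT value on the right a median of 181 bp, which is 96.5 bp for kept regions up to 1500 bp wide; summits beyond the axis are not drawn.

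Starts on both strands were more frequent in lost regions. They were found in 99 of 772 lost regions (12.8%, 10.6 to 15.4%) and in 57 of 1268 kept regions of like NT value (4.50%, 3.49 to 5.78%), counting regions whose genes are all in the promoter table. Weaker lost regions had 7.74%. Up to 1500 bp wide, the shares were 11.0% (8.77 to 13.8%) of lost and 6.74% (4.36 to 10.3%) of kept regions, whose intervals overlap. Of the 100 lost regions with starts on both strands, 86 had divergent genes. The same held for 42 of 58 kept regions of like NT value (72.4%) and 193 of 217 weaker lost regions (88.9%). The median signed distance between the starts, positive where they diverge, was 80 bp over the 100 lost regions, 89.5 bp in the kept and 101 bp in the weaker lost regions. Among the 100 lost regions, the pair with the highest NT value was Ska3, a gene of the kinetochore, and Mrpl57, a mitochondrial ribosomal protein gene, with a value of 52 (chr14:57825619-57827010). Others were Eif2b1 with Gtf2h3 (39), Kdm1b with Tpmt (47), Gtf2h1 with Hps5 (43), and Cct6a with Psph (37).

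Of the 10 motifs searched in promoters, 5 had shares at lost and kept regions whose 95% intervals did not overlap, and all 5 were more frequent at lost regions. They were the letters of ETS factors, NRF1, YY1, CRE-binding factors and the E-box. All 5 contain CG, as does the GC box, whose intervals overlapped. The median ratio of observed to expected CpG was 0.850 in lost and 0.776 in kept promoters. Whether the motif shares go with this ratio was not tested. The search covered 300 bases, from 250 before to 50 after each start, on both strands, in 1029 promoters at lost regions, 1363 at kept regions of like NT value, and 21263 protein-coding promoters in all. CCGGAAG occurred in 24.5% (22.0 to 27.2%) of lost promoters, 9.46% (8.02 to 11.1%) of kept promoters and 11.6% of all promoters. TGCGCA occurred in 18.4% of lost, 9.32% of kept and 9.74% of all promoters. ATGGCGG occurred in 12.1% of lost, 5.65% of kept and 5.25% of all promoters. The CRE core TGACGT was found in 15.2% of lost, 8.73% of kept and 8.49% of all promoters, and the E-box CACGTG in 11.9% of lost, 7.63% of kept and 7.84% of all. At least 1 of the ETS, NRF1 and YY1 motifs was present in 46.3% (43.2 to 49.3%) of lost, 21.9% (19.8 to 24.1%) of kept and 23.0% of all promoters. The weaker lost regions had 24.9% for CCGGAAG, 14.6% for TGCGCA and 8.29% for ATGGCGG. None of these letters contains another searched motif. A match is a description of sequence and does not show that a factor was bound.

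With width limited to 1500 bp the difference between lost and kept promoters was smaller. CCGGAAG occurred in 28.0% (24.9 to 31.3%) of 761 lost and 19.9% (15.7 to 24.9%) of 287 kept promoters. TGCGCA occurred in 19.4% (16.8 to 22.4%) of lost and 12.5% (9.20 to 16.9%) of kept promoters, and ATGGCGG in 13.5% (11.3 to 16.1%) of lost and 9.41% (6.55 to 13.3%) of kept. At least 1 of the ETS, NRF1 and YY1 motifs was in 50.9% (47.3 to 54.4%) of lost and 35.2% (29.9 to 40.9%) of kept. Of the 10 motifs alone, CCGGAAG was then the 1 whose intervals did not overlap, by a narrow margin. The 761 lost promoters came from 617 regions, and promoters of the same region can overlap and share a match, as at Ska3 and Mrpl57. The intervals treat promoters as independent and can be too narrow, so this margin does not set CCGGAAG apart.

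The other motifs had overlapping intervals at lost and kept regions. The GC box GGGCGG was found in 75.1% of lost, 73.8% of kept and 46.2% of all promoters. CCAAT was found in 34.9% of lost, 33.8% of kept and 38.2% of all promoters, and TATAAA in 5.93% of lost, 6.97% of kept and 12.6% of all. The AP-1 letters TGANTCA, bound by dimers of Fos and Jun proteins, were found in 3.30% of lost, 3.82% of kept and 6.99% of all promoters. CTACAAT, the core bound by ZNF143, was found in 0.583% of lost, 0.880% of kept and 2.15% of all. Median G+C content was 65.3% in lost, 65.7% in kept and 56.3% in all promoters. The ratio of observed to expected CpG had a median of 0.850 in lost, 0.776 in kept and 0.567 in all promoters. With width limited to 1500 bp the medians were 0.843 (95% interval 0.826 to 0.861) in lost and 0.868 (0.847 to 0.887) in kept promoters, with overlapping intervals.

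**Figure D4:**
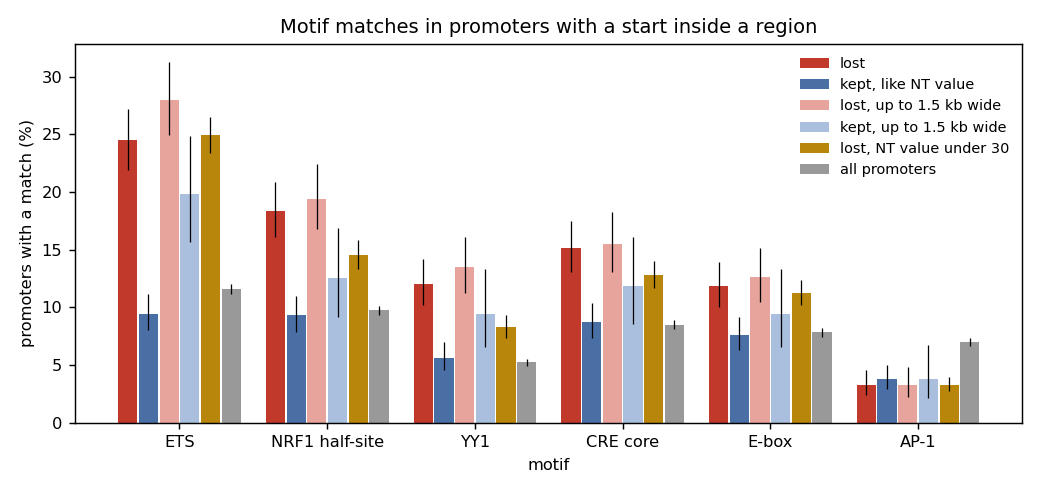
Percentage of promoters with at least 1 match to each motif, for lost regions, kept regions of like NT value, both limited to 1.5 kb width, weaker lost regions and all protein-coding promoters, with 95% Wilson intervals. The ETS letters are in 24.5% of promoters at lost regions, 9.46% at kept regions and 11.6% overall.

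Of 3731 protein-coding genes with an end within 2.5 kb of a strong NT region, 1272 (34.1%) had a lost one. Counting only genes with a start inside the region, the share was 36.4% of 2473. In the NT range of the lost regions it was 40.3% of 3158, and in that range with regions up to 1500 bp wide it was 70.9% of 1392. The last value shows how far a gene's place among the lost regions goes with width, so each list's count over all strong regions is to be read against 34.1%, and its count at narrow regions, up to 1500 bp wide, against 70.9%. The 20 gene lists together had 150 of 395 genes at lost regions (38.0%), and 118 of 172 (68.6%) at narrow regions. The median NT value of the 1272 genes, taking each gene's highest lost region, was 34, and for the 150 listed genes it was 34 too.

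Genes of mitochondria were largely on the lost side. Of 17 mitochondrial ribosomal protein genes at a strong region, 15 had a lost one (88.2%, 65.7 to 96.7%, median NT value 33), and at narrow regions 14 of 14 had one, against 70.9% of all genes there. Mrpl57 had 52, Mrpl38 39 and Mrps27 36. The kept ones, Mrpl52 (LPS value 19, NT value 39) and Mrps23 (29 and 49), lay in regions of 2667 and 3260 bp, whereas the lost ones lay in regions of 858 to 1638 bp. Of 10 nuclear genes of oxidative phosphorylation, 9 were at lost regions (90.0%, 59.6 to 98.2%, median NT value 35), and 6 of 6 at narrow regions, a count too small to set apart from 70.9%. Atp5a1, the alpha subunit gene of ATP synthase, had 48, Atp5d 39 and Ndufb2, a complex I subunit gene, 36. The Atp5d region held the start of Midn, and Atp5d also had a kept region.

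Genes that make and process RNA were found on both sides. General transcription machinery genes were at lost regions in 12 of 17 cases (70.6%, 46.9 to 86.7%, median NT value 38.5). Taf4 had 59, Gtf2a1 47 and Gtf2h1 43. At narrow regions the count was 10 of 14, close to the share of all narrow genes. Splicing and RNA processing genes had 15 of 27 (55.6%, 37.3 to 72.4%), with Srsf7 and Gemin6 at 63, and 6 of 10 at narrow regions. Of 31 ribosomal protein genes 18 were at lost regions (58.1%, 40.8 to 73.6%, median NT value 37), including Rpl10a at 53, Rps15 at 49 and Rpl18 at 47. At narrow regions they had 16 of 29 (55.2%), below the 70.9% of all narrow genes. Ribosomal protein genes at kept regions included Rpl13, Rps6 and Rplp0. Translation factor and tRNA synthetase genes had 7 of 17, with Eif4a3 at 56, Eif4g2 at 45 and Eif2b1 at 39, and 6 of 9 at narrow regions. Genes with a start inside a lost region numbered 12 in the general transcription list, 10 in the splicing and 10 in the ribosomal protein list. They numbered 4 in the translation list and 101 over all lists. Starts could be counted only for the 17492 of 21887 genes in the promoter table, so these counts are lower limits. By the definition of a gene end used here, a gene counted at a lost region need not have its start there.

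The lists of cell division, trafficking, chromatin and protein quality control genes ranged more widely. Cell cycle, replication and repair genes were at lost regions in 13 of 19 cases (68.4%), and in 12 of 13 at narrow regions. Among them were Anapc5 (48) and Anapc13 (35), subunit genes of the anaphase-promoting complex, and Rbl1 (46), of the retinoblastoma family. Vesicle trafficking and autophagy genes had 15 of 23 (65.2%, against 34.1% of all genes), with Sec16a (45), Arf1 (38) and Rab7 (37). At narrow regions they had 13 of 18 (72.2%), about the 70.9% of all narrow genes. Histone modifying enzyme genes had 10 of 21, among them the demethylase gene Kdm1b (47), Hdac3 (39) and Setd1b (37), and 6 of 10 at narrow regions. Proteasome and ubiquitin-conjugating enzyme genes had 7 of 16, with Psmb2 (38), Psmb4 (34) and Ube2q2 (34), whose region held the start of Fbxo22, and 6 of 12 at narrow regions. Chaperone genes had 6 of 16, with Hsp90aa1 (38), Cct6a (37) and Hspa8 (34), and 5 of 10 at narrow regions. Polycomb genes had 2 of 8, Bap1 (38) and Asxl2 (33), which encode parts of the complex that removes ubiquitin from histone H2A, and 2 of 3 at narrow regions. The 6 at kept regions included Bmi1 (LPS value 75, NT value 198) and Cbx2 (17 and 38).

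Genes of Toll-like receptor and cytokine signalling include some that relay the LPS signal and some, such as cytokine receptor genes, that relay other signals. Of 8 of them at strong regions, 7 had a lost one (87.5%, 52.9 to 97.8%, median NT value 35), against 34.1% of all genes. At narrow regions 6 of 6 had one, a count too small to set apart from the 70.9% of all genes there. The list's lost regions had a median width of 1093 bp. The 7 were the receptor genes Ifnar1 (36), Ifngr1 (35) and Csf2ra (30), the kinase gene Map3k7 (34) and its partner Tab1 (34), and the transcription factor genes Stat3 (37) and Relb (38). Csf2ra is also in the macrophage list, and the Relb region held the start of the neighbouring gene Clasrp. The remaining gene, Jak3, had a kept region with an LPS value of 21 and an NT value of 55. MAP kinase pathway genes had 8 of 15 (53.3%), with Map3k2 at 39 and Mapk14, the p38 alpha kinase gene, and Sos1 at 37, and 6 of 7 at narrow regions.

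By contrast, 0 of 16 early LPS response genes at strong regions had a lost one (0 to 19.4%). This holds for the genes of the list only. Outside it, Gadd45a (NT value 43) and Zfp36l2 (34) had lost regions, while their listed relatives Gadd45b and Zfp36 had kept ones. These relatives were chosen after their values were seen. The kept regions of the listed genes are described next. The list's 18 kept regions had LPS values of 10 to 65 and NT values of 30 to 152, with a median width of 2551.5 bp. Fos had an LPS value of 12 and an NT value of 46, Jun had 12 and 48, Dusp1 21 and 44, and Nfkbia 24 and 42. Socs3 had 22 and 30, an NT value at the threshold itself. At narrow regions the count was 0 of 1, so width and list cannot be told apart there. Interferon response genes had 0 of 2. Of 10 macrophage identity genes 5 were at lost regions, and 3 of 6 at narrow regions, among them the cathepsin gene Ctsb (37), Mertk (36), a receptor gene for uptake of dying cells, and the transcription factor gene Maf (32). Maf also had a kept region, with an LPS value of 13 and an NT value of 41. Bcl2l11, which encodes the cell death protein Bim, had a lost region with a value of 33, and was 1 of 6 Bcl2 family genes; at narrow regions the count was 0 of 1.

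Genes of the developmental and Hox lists were almost absent from the lost regions. Developmental genes outside these lists were found there, among them Eya1 (NT value 40), Meis1 (34) and Hlx (32). They were chosen after their values were seen, and such genes at kept regions were not counted. Of 86 developmental transcription factor genes outside the Hox clusters at strong regions, 1 had a lost one (1.16%, 0.206 to 6.30%). This was Tbx20, a heart T-box gene, with an NT value of 30 and a summit 1 bp upstream of its start (chr9:24773494-24774838). The 101 kept regions of the list had a median NT value of 58, a median LPS value of 30 and a median width of 5331 bp. Their NT values reached 202, whereas no lost region was above 63. The count was not limited to that range, and how far the share goes with NT value was not tested. Of 32 Hox cluster genes 0 had a lost region (0 to 10.7%), and their 32 kept regions had a median width of 4884 bp. At narrow regions the developmental list had only 3 genes, of which 1 was at a lost one, so the share there is not measurable.

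**Figure D5:**
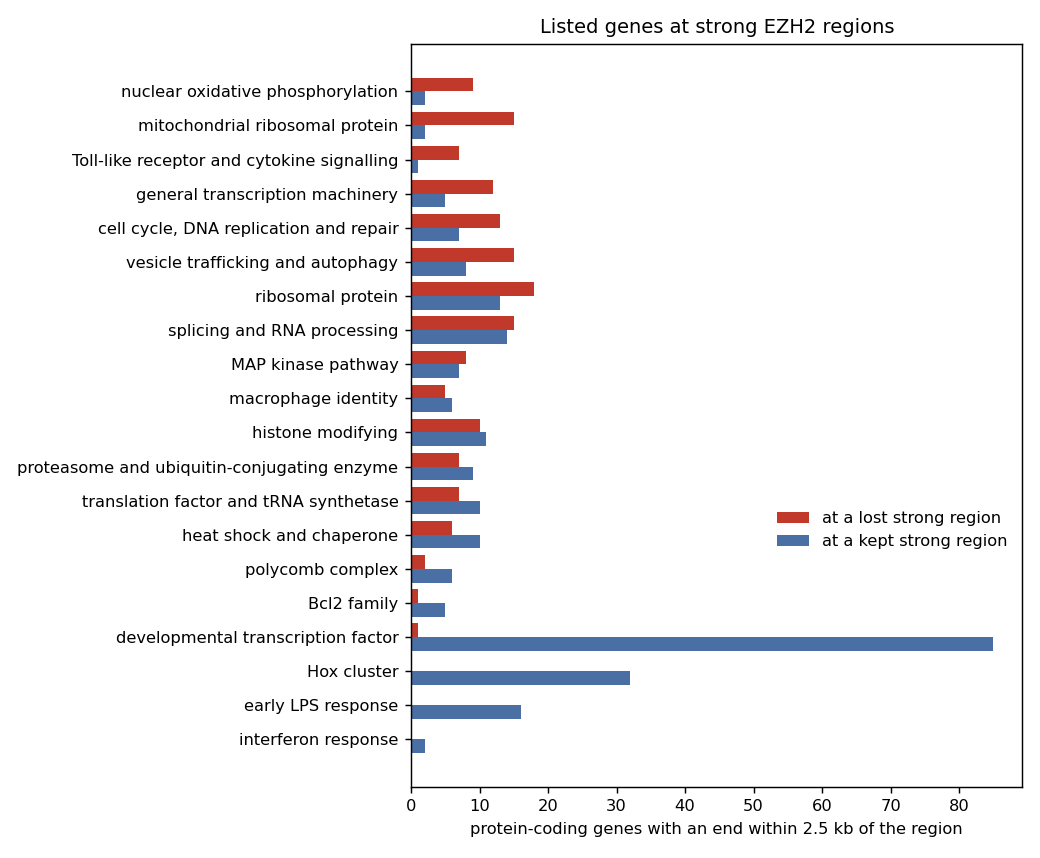
Number of protein-coding genes of each list with an end within 2.5 kb of a lost strong region and of a kept strong region, ordered by the share at lost regions. Mitochondrial ribosomal protein genes show 15 at lost regions, and developmental transcription factor genes show 1; a gene with both kinds counts in both bars.

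The choice of members fixed that no LPS interval overlapped a lost region. The nearest was at a median of 105534 bp (quartiles 45246.5 and 264338), close to the median of 102955 bp for weaker lost regions, and 73 of 1095 (6.67%) had one within 10 kb. In 14 cases the gap was at most 500 bp. The smallest gap was 5 bp, at Thada and Zfp36l2 (NT value 34, chr17:84187443-84189082), followed by 59 bp at Cdc42bpa (39) and 69 bp at Meis1 (34). The Maf region lay 187 bp from an LPS interval. These genes, other than Maf, were chosen for the smallest gaps after their values were seen.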

How the data were processed

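Intervals and summits of 1 EZH2 library per condition, and merged regions, were taken from 5 tracks deposited by the authors on mm10 and are printed 1-based. The deposited score of a summit is a whole number with no stated unit. BWA, SICER and mm10 come from the submitters' processing notes. The role and settings of each tool, the depth, and any scaling or input correction are not given in the sources used here, so a summit value has no error here.

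Overlap required 1 bp. Genes came from the RefSeq table of GRCm38.p6 (21887 protein-coding genes), which gives no strand, and starts and sequences from its promoter table, which covers 17492 of them. Shares have 95% Wilson intervals, which treat neighbouring regions, and promoters of the same region, as independent. Medians have order-statistic intervals. With 1 library per condition no test was run. Python 3.11.15, NumPy 2.4.6, SciPy 1.17.1 and Matplotlib 3.10.9 were used, and the overlap, distance and motif functions were tested on simulated data.

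The members and gene lists were chosen with earlier results of these data known. Named genes are those at or nearest to the 16 highest and 4 widest lost regions (ties in value ordered by width), up to 3 per list with the highest NT value, and members of small counts; some genes the rule gives are not reported here. Genes named at kept regions were chosen after their values were seen. Alternatives were other NT thresholds, gaps to LPS intervals, gene windows and the NT interval as the unit. The limit of 1500 bp on width was added after the data were seen.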

Additional observations from a re-analysis of the deposited data

How the results depend on the processing

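No paired analysis was possible because there was a single EZH2 library for LPS and a single one for NT, and for the same reason no library could be left out. Of 61 alternative values of the main results, 42 stayed within 1.5 times the count, or within the 95% interval of the share or median. The 42 include the values with the NT list cut and with NT intervals as the unit, which could not move. The number of lost regions was 2286 with NT summit values of 25 or more, 486 with 35 and 188 with 40. The median width was 1183, 1244.5 and 1235 bp at these thresholds, and listed genes numbered 275, 70 and 23. At 35 and 40 the median CpG ratio was 0.878 and 0.882. At 40, the share near an LPS interval was 5.32% and the share of promoters with CCGGAAG 20.7%. Leaving out regions with an LPS interval within 1 kb gave 5.19% near an LPS interval by construction. The share at gene ends was 85.6% with a 1 kb window, 92.3% with 5 kb and 76.6% when a RefSeq start within 2.5 kb was required. The promoter table holds no start on chromosome 18, so the 40 lost regions there could not meet the last rule. Limited to 1500 bp width, CCGGAAG was in 28.0% of promoters. Starts on both strands were in 9.13% of all 1095 lost regions and in 12.8% where all genes are in the promoter table. At every threshold CCGGAAG was more frequent in lost than in kept promoters, with 26.5% of lost and 10.9% of kept at 25, and 20.7% of lost and 7.92% of kept at 40. Cutting the NT list to the length of the LPS list, and taking NT intervals as the unit, left 1095 lost regions by construction, since the first removed no summit of 30 or more and every member held 1 NT summit, so neither bears on stability. Per list, 142 of 200 values stayed within 1.5 times, and these include NT intervals as the unit, which could not move. Mitochondrial ribosomal protein genes had 25 of 28 at lost regions at 25 and 1 of 2 at 40. Early LPS response genes had 1 of 17 at 25 and 0 of 10 at 40. Depth is unknown and limits every absence of an LPS interval.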

Other observations

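Gene families grouped by symbol were examined after their values were seen. At strong regions, 28 of 52 Zfp genes (53.8%), 6 of 8 nucleoporin (Nup) genes, 7 of 10 ubiquitin protease (Usp) genes and 5 of 8 Zbtb genes had a lost region. The share was 34.1% of all genes at strong regions. In contrast, 0 of 16 Wnt ligand genes, 1 of 13 collagen (Col) genes (Col23a1) and 23 of 83 solute carrier (Slc) genes had one. Width was not matched in these counts.

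Hairpins of 5 miRNAs lay in lost regions. Hairpins at kept regions are not given here, so this count cannot be set against the 29.0% of strong regions that were lost. The 5 were Mir5133 at Glce (NT summit value 58), Mir8114 at Glul (48), Mir7238 at Ankrd10 (36), Mir5131 at Ddhd1 (35) and Mir5625 at Slc35f6 (32). By chromosome, the share of strong regions that were lost was 18.6% on chromosome 14 and 38.8% on chromosome 8, the lowest and highest outside Y, where the single strong region was lost.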
